A study of Homo sapiens with 4 samples.

Results

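S100 proteins are small calcium-binding proteins of vertebrates, and the transcripts of 10 genes of this family are described here in HCC1954 cells: S100A2, S100A4, S100A6, S100A7, S100A8, S100A9, S100A10, S100A11, S100A14 and S100P. They were chosen by name from the 58735 genes of the table, with the difference between shZDHHC15 and shCON cells already known, so their levels and fold changes are given as a description and carry no test. HCC1954 is a long-established line of human breast carcinoma cells. Total RNA was sequenced from 2 samples with a scrambled hairpin (shCON) and from 2 samples with a hairpin against the palmitoyltransferase ZDHHC15 (shZDHHC15). No other treatment is described, and cells of both groups grew in RPMI-1640 medium with serum. The labels describe transient transfection of the hairpin plasmids and the study's methods also mention stable lines, and neither says whether the numbers 1 and 2 stand for separate cultures, clones or hairpins. P-values therefore measure only the spread between these samples, which may be technical.

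Each S100 protein carries a pair of EF-hand loops, most of them change shape when calcium binds, and they act as dimers inside the cell by gripping partner proteins. Several are also secreted. S100A8 and S100A9 form calprotectin, which withholds zinc and manganese from microbes and is sensed by TLR4 and by the receptor for advanced glycation end products (AGER). S100A7, or psoriasin, is an antimicrobial protein of inflamed skin. S100A10 and S100A11 bind annexins, S100A6 (calcyclin) binds the ubiquitin ligase adaptor CACYBP, S100A4 binds non-muscle myosin, and S100P binds ezrin. In epithelia, S100A2 and S100A14 are known as genes of basal and stratified cells. Most of the family lies in 1 cluster on chromosome 1, around the genes of the cornified layer of skin.

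The targeted gene, ZDHHC15, had 17617 and 15716 counts under shCON and 0 counts in either sample under shZDHHC15. A hairpin usually leaves part of its target transcript, so a count of 0 in both samples is unusual for this method, and what lies behind it was not tested. Total counts lay between 17560982 and 19118704 per sample. Samples of the same group differed by more than counting noise (chi-square per degree of freedom 8.32 for shCON and 6.79 for shZDHHC15), so none was taken for a repeat deposit. The 6 breast epithelial markers (KRT8, KRT18, KRT19, EPCAM, CDH1 and ERBB2) summed to between 13600 and 14610 CPM in shCON and to between 7966 and 7992 CPM in shZDHHC15 samples, where CPM are counts scaled by library size and TMM factors. Of these 6, 1 was higher and 4 were lower with shZDHHC15 (adjusted p under 0.05, past which 21.7% of all genes tested were higher and 20.3% lower). Most of the difference in the sum was KRT8, with means of 6058 CPM in shCON and 1969 CPM in shZDHHC15 cells. CDH1 did not pass the limit, with means of 365 and 354 CPM (edgeR adjusted p = 0.706). The calls of KRT8 and KRT18, both lower, held under all 11 alternatives, while that of ERBB2 was lost under 6, that of EPCAM under 1 and that of KRT19, the higher one, under 2. S100A8, S100A9 and S100A12 are abundant in myeloid cells, and of 10 myeloid markers MPO, ELANE and TYROBP had 0 counts in every sample, and PTPRC had 1 to 4 counts. The whole myeloid list summed to between 1.13 and 1.21 CPM in shCON and to between 1.83 and 2.31 CPM in shZDHHC15 samples. CD14, the 1 marker expressed highly enough to be tested, went from 9 and 5 counts to 25 and 22 counts (edgeR adjusted p = 0.0159), a call lost with the DESeq2 test, with no filter on low counts, and without shCON replicate 2 or shZDHHC15 replicate 1. The 6 fibroblast markers summed to between 5.98 and 7.35 CPM in shCON and to between 8.56 and 11.55 CPM in shZDHHC15 samples, with LUM at 0 counts. Most of this sum was COL1A1, the 1 fibroblast marker tested, which went from 100 and 120 to 214 and 161 counts (log2 fold change 0.65, edgeR adjusted p = 0.0232). It no longer passed the limit in 4 of 11 alternatives, among them without shCON replicate 1 and without shZDHHC15 replicate 1. The part of these markers in the S100 results was not tested. In such bulk samples, fewer cells of a type and less RNA per cell cannot be told apart.

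The stretches before the transcription start are shown for S100A8 and S100A9, the pair with large differences, and for S100A7A, the near copy of S100A7, because these windows overlap no annotated exon. They come from RefSeq on GRCh38.p14, span the 250 bases before an annotated start and read 5′ to 3′ along the gene. Capitals mark motif matches. In S100A9 and S100A7A they mark TATAAA, the core of the TATA box, which was added to the search after these sequences had been seen, and in S100A8 they mark GAAANNGAA, the core of an interferon response element, on the other strand. S100A8 lies on the minus strand (chr1:153391189-153391438, before the farthest of 3 annotated starts), S100A9 on the plus strand (chr1:153357604-153357853) and S100A7A on the plus strand (chr1:153416270-153416519).
S100A8: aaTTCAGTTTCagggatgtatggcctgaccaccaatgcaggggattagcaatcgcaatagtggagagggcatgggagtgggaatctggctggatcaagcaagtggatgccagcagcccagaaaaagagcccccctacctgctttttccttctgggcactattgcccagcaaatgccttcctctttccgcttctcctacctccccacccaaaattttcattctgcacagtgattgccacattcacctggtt
S100A9: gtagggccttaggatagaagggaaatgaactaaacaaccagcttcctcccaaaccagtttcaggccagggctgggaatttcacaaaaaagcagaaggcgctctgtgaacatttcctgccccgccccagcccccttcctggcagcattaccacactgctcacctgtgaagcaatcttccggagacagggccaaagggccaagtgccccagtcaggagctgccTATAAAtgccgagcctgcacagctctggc
S100A7A: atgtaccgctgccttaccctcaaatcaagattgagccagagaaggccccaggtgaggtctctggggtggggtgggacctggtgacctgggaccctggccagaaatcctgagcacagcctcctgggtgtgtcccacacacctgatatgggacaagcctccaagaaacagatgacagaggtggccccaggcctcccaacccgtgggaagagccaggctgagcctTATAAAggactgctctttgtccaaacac

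TATAAA was in 6 of the 13 windows of the 10 genes and in 10.7% of all 35116 such windows. These 6 belong to 5 genes (S100A4, S100A7, S100A8, S100A9 and S100P), since overlapping windows of S100A8 share a match. As this motif was added after the sequences had been seen, nothing is read from the shares. TATAAA began 29 bases before the start of S100A9 and before the middle start of S100A8, 28 bases before the starts of S100A7, S100A7A and S100P, and 31 bases before that of S100A4. It was thus found before genes that were higher and genes that were lower in shZDHHC15 cells. Every motif was searched on both strands, and no matches of different motifs overlapped in the described genes. GGAATG, the letters that TEAD factors bind, was in 0 of the 13 windows of the 10 genes and in 11.9% of all windows. TTCNNNGAA, a STAT site, was in 0 of 13 and in 6.57% of all. TGANTCA, an AP-1 site, was in a window of S100A2 (6.57% of all windows), TTGCNNAA, the core of a C/EBP site, in that of S100A11 (9.05%), and GAAANNGAA in that of S100A14 and in the window of S100A8 shown (6.88%). These matches are descriptions of letters in short windows. The windows of S100A7 and S100A7A were identical at 241 of 250 positions (96.4%).

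In the shZDHHC15 samples the S100 transcripts parted into genes that were much higher, genes that hardly differed and genes that were moderately lower. With an adjusted p under 0.05 as the limit, 3 of the 10 genes were on the higher side (S100A7, S100A8 and S100A9) and 4 on the lower side (S100A6, S100A10, S100A14 and S100P). Of all 15817 genes tested, 21.7% were past this limit on the higher and 20.3% on the lower side. All 10 genes passed the filter on low counts. The levels of the 2 groups did not overlap in 9 of the 10 genes, as in 72.5% of all genes tested. The median log2 fold change was -0.16 over the 10 genes and 0.02 over all genes. Since the genes were named with this contrast known, nothing is read from these counts.

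**Figure D1:**
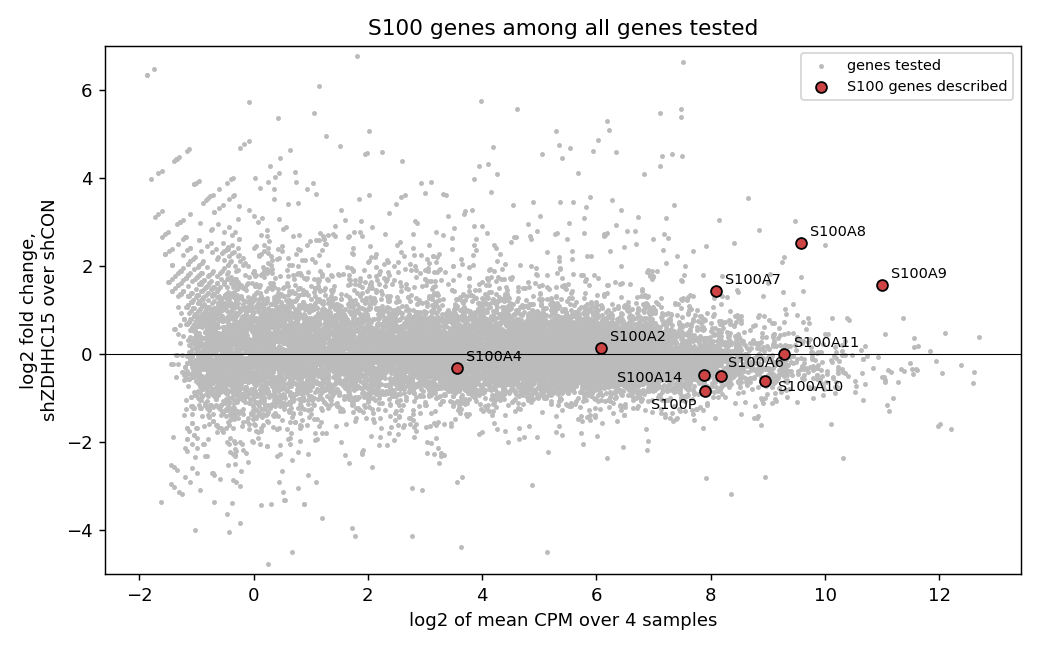
Each point is a gene, with the log2 of its mean CPM over the 4 samples on the x axis and its log2 fold change, shZDHHC15 over shCON, on the y axis, drawn from -5 to 7 (11 of 15817 genes lie outside). S100A8, S100A9 and S100A7 lie above the bulk of genes of like level, and S100A11 lies near 0.

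S100A7, S100A8 and S100A9, described above as acting against microbes, were the genes with large differences. S100A8 (ENSG00000143546, chromosome 1, 153390032 to 153391188) had 3714 and 4216 counts in shCON and 27242 and 22282 counts in shZDHHC15 samples. Scaled, these were 203.7 and 249.9 CPM against 1463 and 1135 CPM. Both shZDHHC15 samples lay far above both shCON samples, and they differed from each other by 25.3% of their mean. The mean went from 227 ± 32.7 to 1299 ± 232 CPM (SD, n = 2), which is 5.73-fold or 2.52 on the log2 scale (standard error 0.127). Ranked by mean CPM among the genes tested, S100A8 stood at 852 in shCON and at 49 in shZDHHC15 cells.

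S100A9 (ENSG00000163220, chromosome 1, 153357854 to 153361027), whose protein pairs with that of S100A8, was already abundant in control cells. It received 17788 and 18191 counts in shCON and 62038 and 54410 counts in shZDHHC15 samples, or 975.7 and 1078 against 3332 and 2772 CPM. The groups were again far apart, with the first shZDHHC15 sample the highest. The mean was 1027 ± 72.6 CPM in shCON and 3052 ± 396 CPM in shZDHHC15 cells (SD, n = 2), 2.97-fold higher, and the log2 fold change was 1.57 (standard error 0.101). By mean CPM it went from rank 95 to rank 13 of all genes tested.

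Since S100A8 differed more than S100A9, the balance of the pair was not the same in the 2 groups. Per length, the level of S100A9 was 8.35 and 7.52 times that of S100A8 in shCON and 3.97 and 4.26 times in the shZDHHC15 samples. S100A9 stayed the higher of the pair in each sample. The length used for S100A8, 1006 bases, counts the exons of every annotated transcript, including a longer one without a coding sequence, so the size of this ratio depends on that length while its change between samples does not.

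S100A7 (ENSG00000143556, chromosome 1, 153457744 to 153460701) received 2575 and 2572 counts in shCON and 8355 and 6807 counts in shZDHHC15 samples. In CPM these were 141.2 and 152.5 against 448.7 and 346.8, without overlap. The mean went from 147 ± 7.94 to 398 ± 72.1 CPM (SD, n = 2), 2.71-fold, or on the log2 scale 1.44 (standard error 0.115). In S100A7, S100A8 and S100A9 alike the first shZDHHC15 sample lay above the second, and the log2 fold changes without it were 1.24, 2.32 and 1.43.

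S100A10 and S100A11, which bind annexins, differed in their fold changes from S100A7, S100A8 and S100A9 and from each other. S100A10 (ENSG00000197747, chromosome 1, 151982915 to 151994390), also called p11, holds annexin A2 in a complex that binds plasminogen at the cell surface. It received 587.6 and 607.2 CPM in shCON and 366 and 421.7 CPM in shZDHHC15 samples. Both shZDHHC15 samples were below both shCON samples, with a mean of 394 ± 39.4 against 597 ± 13.9 CPM (SD, n = 2) and a log2 fold change of -0.60 (standard error 0.0931). S100A11 (ENSG00000163191, chromosome 1, 152032506 to 152047907), a partner of annexin A1, was at 605.6 and 634.3 CPM in shCON and at 604 and 629.9 CPM in shZDHHC15 samples. Its samples overlapped, its log2 fold change was -0.01 (standard error 0.0854), and its sign turned under 4 of 11 alternatives, where it lay between 0.0045 and 0.07 (library size as the only scaling, at least 10 counts in every sample, and without shCON replicate 2 or shZDHHC15 replicate 1).

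S100A6 (ENSG00000197956, chromosome 1, 153534599 to 153536244) was at 294.4 and 381.9 CPM in shCON and at 242.7 and 233.5 CPM in shZDHHC15 samples. The groups did not overlap, but the shCON samples lay farther from each other than the first of them lay from the shZDHHC15 samples. The log2 fold change was -0.51 (standard error 0.111), and it was -0.31 without shCON replicate 2 and -0.70 without shCON replicate 1. An antisense gene, BX470102.1, covers 23 bases of its exons.

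S100P (ENSG00000163993, chromosome 4, 6693069 to 6697170), the 1 member outside chromosome 1, binds ezrin and is known from several carcinomas. It received 4778 and 5986 counts in shCON and 3426 and 3119 counts in shZDHHC15 samples, or 262.1 and 354.9 against 184 and 158.9 CPM. Both shZDHHC15 samples were lower, and the shCON samples differed from each other by 30.1% of their mean, the widest gap between samples of a group among the 10 genes. The mean was 309 ± 65.6 CPM in shCON and 172 ± 17.8 CPM in shZDHHC15 cells (SD, n = 2), a difference of -0.85 on the log2 scale (standard error 0.126). Leaving out single samples moved it to between -1.07 and -0.62.

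S100A14 (ENSG00000189334, chromosome 1, 153614255 to 153616986), an epithelial member, was at 247.7 and 297.1 CPM in shCON and at 192.8 and 200.4 CPM in shZDHHC15 samples. The groups did not overlap, and its log2 fold change was -0.47 (standard error 0.101). S100A2 (ENSG00000196754, chromosome 1, 153561108 to 153567890), which p53 and p63 are known to induce, was at 60.12 and 69.07 CPM in shCON and at 72.08 and 69.24 CPM in shZDHHC15 samples. The second samples of the groups were nearly level, and its log2 fold change of 0.13 (standard error 0.106) was 0.01 without shCON replicate 1. S100A4 (ENSG00000196154, chromosome 1, 153543613 to 153550136), known as metastasin, was the rarest member, with 239 and 223 counts in shCON and 208 and 195 counts in shZDHHC15 samples. It was at 13.11 and 13.22 against 11.17 and 9.93 CPM, a log2 fold change of -0.32 (standard error 0.155). Neither S100A2, S100A4 nor S100A11 was past the limit.

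The ranks by mean CPM above take no account of gene length. Here the levels of the 10 genes were set side by side per length, as CPM per kilobase of annotated exon. These lengths count the exons of every annotated transcript, as said for S100A8. The order of genes, and the sums and shares per length given below, depend on them. In shCON cells S100A9 led with a mean of 1780, followed by S100A11 with 912, S100A10 with 387, S100A6 with 348, S100A7 with 274, S100P with 241, S100A8 with 225, S100A14 with 213, S100A2 with 41.2 and S100A4 with 12.8. The samples of S100A10 and S100A6 overlapped, as did those of each neighbouring pair from S100A7 through S100P and S100A8 to S100A14, so those places in the order are not settled. In shZDHHC15 cells S100A8 stood next to S100A9, with means of 1290 and 5290, ahead of S100A11 with 907 and S100A7 with 742. Only S100A10 and S100A6, at 255 and 245, overlapped as neighbours there, and S100A14, S100P, S100A2 and S100A4 came last with 154, 134, 45.1 and 10.3.

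Summed per length, the 10 genes came to 4181 and 4689 CPM per kilobase in shCON and to 9793 and 8355 in shZDHHC15 samples. S100A7, S100A8 and S100A9 together made up 51.6% and 51.2% of this sum in shCON and 82.4% and 78.8% in shZDHHC15 samples. The other 7 genes summed to 2024 and 2287 CPM per kilobase in shCON and to 1727 and 1775 in shZDHHC15 samples. In plain counts, the 10 genes took 0.334% and 0.369% of all counts in shCON and 0.707% and 0.614% in shZDHHC15 samples.

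The rest of the family was not part of the chosen set, and it was tested. Of 11 other S100 genes and 7 fused-type relatives, in which an S100 domain is joined to long repeats, 9 were expressed highly enough. Of these 9, 3 were higher and 2 lower past the same limit, where 21.7% and 20.3% of all genes tested were. The median log2 fold change of the 9 was 0.25. S100A7A (koebnerisin), the near copy of S100A7, rose from 256 and 241 counts to 2048 and 1607 counts (log2 fold change 2.76, standard error 0.147, edgeR adjusted p = 2.08e-09). Its transcript matches that of S100A7 over 441 bases at 95% identity, so reads could be split between them in the counting. The counts of S100A7A were 9.94% and 9.37% of those of S100A7 in shCON and 24.5% and 23.6% in shZDHHC15 samples. These shares take no account of length, which is 4457 bases for S100A7A and 536 for S100A7. Per kilobase, S100A7A had a mean of 3.18 CPM in shCON and 21.5 in shZDHHC15 cells, against 274 and 742 for S100A7.

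S100A12, which lies between S100A9 and S100A8 and encodes another calcium-binding alarmin of granulocytes, rose from 13 and 15 counts to 71 and 59 counts (log2 fold change 2.08, standard error 0.348, edgeR adjusted p = 2.45e-04). S100A3 rose from 34 and 58 to 125 and 135 counts (log2 fold change 1.37, standard error 0.261, edgeR adjusted p = 7.19e-04), and its whole span lies within that of S100A4 on the same strand, with 0 shared exon bases. S100A16, an abundant epithelial member, fell from 674 ± 48.7 to 496 ± 27.4 CPM (SD, n = 2; log2 fold change -0.44, standard error 0.0907, edgeR adjusted p = 0.00124). S100A13 fell as well (log2 fold change -0.52, standard error 0.147, edgeR adjusted p = 0.0103), and this call was lost with no filter on low counts and without shZDHHC15 replicate 1. It shares 536 exon bases with AL162258.1 on the same strand, so reads could be split between them whatever the strand setting. It also shares 235 with S100A1 on the other strand, and whether counting used the strand is not given in the sources used here. In each of these 5 genes both shZDHHC15 samples lay on the same side of both shCON samples, as in 72.5% of all genes tested.

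S100A1, with 18 and 13 against 20 and 37 counts, did not pass the limit (log2 fold change 0.75, standard error 0.421, edgeR adjusted p = 0.17), nor did S100A5 (-0.76, standard error 0.456, edgeR adjusted p = 0.198). Of the fused-type genes, TCHH (trichohyalin) and TCHHL1 were tested and had log2 fold changes of 0.17 and 0.25 (edgeR adjusted p = 0.465 and 0.274). FLG, FLG2 and HRNR had 9 counts or fewer in each sample, and RPTN and CRNN had 0. S100B, S100G and S100A7L2 had 0 counts in every sample and S100Z 1 count in 1 sample, and a count of 0 leaves room for up to 0.178 CPM here, a limit for counting error only.

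Along chromosome 1 5 of the S100 genes with large differences were neighbours. Of the 17 S100 genes there, S100A9, S100A12, S100A8, S100A7A and S100A7 follow each other in this order, with the unexpressed S100A7L2 among them, and had log2 fold changes of 1.57, 2.08, 2.52, 2.76 and 1.44. The next gene, S100A6, starts 73898 bases beyond S100A7 and had a log2 fold change of -0.51. Farther on, S100A3 had a log2 fold change of 1.37, and the other S100 genes there lay between -0.76 (S100A5) and 0.75 (S100A1). On the other side, S100A11 lies 1309947 bases before S100A9 and had a log2 fold change of -0.01. Between the outermost S100 genes of the chromosome (151982915 to 153632039) the table held 73 other genes, of which 12 were expressed highly enough to be tested, TCHH and TCHHL1 included. Of these 12, 7 were higher and 0 lower past the limit, where 21.7% and 20.3% of all genes tested were. At an unadjusted p under 0.05 edgeR had 1 lower gene, BX470102.2 (named after its value was seen), and DESeq2 called 0 lower. These 7 were 6 small proline-rich (SPRR) genes of the cornified envelope, a family of similar sequences among which reads could be split, and PGLYRP4, which encodes a bactericidal protein that recognises peptidoglycan. SPRR2E rose from 15 and 19 counts to 168 and 229 counts (log2 fold change 3.41, edgeR adjusted p = 3.04e-07), and PGLYRP4 from 14 and 8 to 80 and 65 counts (log2 fold change 2.59, edgeR adjusted p = 6.3e-05). SPRR2F had 1 and 0 counts in shCON and 13 and 16 counts in shZDHHC15 samples, a ratio of 26.6 with a 95% counting interval (exact Clopper-Pearson) from 4.41 to 1090.

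Of 21 genes known to encode partners and receptors of S100 proteins, 20 were tested. Of these 20, 6 were higher and 4 lower past the limit, where 21.7% and 20.3% of all genes tested were. The median of their log2 fold changes was 0.00. ANXA2, the partner of S100A10, fell from 1864 ± 78.7 to 1124 ± 74 CPM (SD, n = 2; log2 fold change -0.73, standard error 0.0877, edgeR adjusted p = 1.29e-05). Per length, its level was 0.538 and 0.553 of that of S100A10 in shCON and 0.512 and 0.488 in shZDHHC15 samples. The lengths used, 8824 bases for ANXA2 and 1543 for S100A10, count the exons of every annotated transcript. The size of this ratio depends on them, so which of the pair is more abundant is not settled. Its change between samples does not depend on them. AHNAK, a large scaffold that this complex binds, had a log2 fold change of -0.02 (standard error 0.109, edgeR adjusted p = 0.925). PLAT, the tissue plasminogen activator that S100A10 is known to bind, rose from 528 and 441 counts to 1719 and 1969 counts (log2 fold change 1.80, standard error 0.111, edgeR adjusted p = 1.09e-08). PLA2G4A, the cytosolic phospholipase A2, whose activity S100A10 is known to restrain, rose from 4 and 7 to 82 and 69 counts (edgeR adjusted p = 9.39e-06).

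EZR, which encodes ezrin, the partner of S100P, fell too (log2 fold change -1.03, standard error 0.0881, edgeR adjusted p = 4.15e-07), from 750 ± 31 to 368 ± 16.8 CPM (SD, n = 2), and an antisense gene covers 24 bases of its exons. MYH9, the non-muscle myosin heavy chain that S100A4 binds, fell by 0.59 (standard error 0.0852, edgeR adjusted p = 6.68e-05). Of the receptors of S100A8 and S100A9, neither TLR4 nor AGER passed the limit. Without shCON replicate 2, TLR4 did pass it (log2 fold change -0.42, edgeR adjusted p = 0.0167), and without shCON replicate 1 its sign turned (0.14). The sign of AGER turned without shCON replicate 1 or shZDHHC15 replicate 1, over a range from -0.36 to 0.53. TLR4 had 547 and 341 counts in shCON and 431 in each shZDHHC15 sample (log2 fold change -0.16, standard error 0.161, edgeR adjusted p = 0.457), and another gene on the same strand shares its exons. AGER had 33 and 56 against 52 and 48 counts (0.04, standard error 0.315, edgeR adjusted p = 0.931). CD36, a fatty acid transporter that binds the S100A8 and S100A9 complex, had 0 and 1 counts in shCON and 13 and 16 counts in shZDHHC15 samples, a ratio of 26.6 with a 95% counting interval from 4.41 to 1090 (edgeR adjusted p = 0.00143).

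Cytokines known to induce S100A7, S100A8 and S100A9 in epithelial cells were mostly scarce. Of 10 listed, 5 were tested, and 3 were higher and 0 lower, and 0 were lower with DESeq2 or at an unadjusted p under 0.05 in edgeR. IL17C, an epithelial member of the IL-17 family, rose from 13 and 10 to 102 and 106 counts (log2 fold change 3.04, standard error 0.32, edgeR adjusted p = 3.52e-06). IL1B rose from 49 and 56 to 165 and 268 counts (1.91, standard error 0.25, edgeR adjusted p = 2.84e-05), and IL36G from 28 and 22 to 81 and 120 counts (1.88, standard error 0.297, edgeR adjusted p = 1.55e-04). The other tested cytokines, IL6 and TNF, did not pass the limit. IL6 had 317 and 276 counts in shCON and 188 and 345 in shZDHHC15 samples (-0.28, standard error 0.2, edgeR adjusted p = 0.279). Over the alternatives it lay between -0.74 and 0.06. TNF had 40 and 51 against 42 and 60 counts (0.04, standard error 0.294, edgeR adjusted p = 0.933). IL17A, IL22 and IFNG had 0 counts in every sample. Of 15 transcription factor genes linked to S100 genes in other work, 6 were higher and 5 lower. For both lists, the shares over all genes tested were 21.7% higher and 20.3% lower. Among the factors that rose were CEBPB (log2 fold change 0.89, edgeR adjusted p = 1.66e-06) and STAT3 (0.73, edgeR adjusted p = 1.29e-05). YAP1, JUN and KLF4 fell by 2.81, 0.77 and 0.70 (edgeR adjusted p = 4.3e-11, 7.69e-06 and 1.22e-04). In every gene of these lists named as higher or lower, both shZDHHC15 samples lay beyond both shCON samples. The groups did not overlap in 72.5% of all genes tested either. These genes were named by their calls, so this adds no support to them.

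The protein-coding genes with the pattern most like that of S100A8 over the 4 samples, by the Euclidean distance of log2(CPM + 0.5) centred on each gene's mean, were IFI27 (distance 0.0642), PLA2G4A (0.0892) and IFI6 (0.114), out of 12947 compared. IFI27 and IFI6 are interferon-induced genes, with log2 fold changes of 2.51 and 2.48. PLA2G4A came close only on this scale, where the added 0.5 shrinks the difference of a rare gene. For S100P the nearest were MRPS28 (0.0569), MB (0.0735), which encodes myoglobin, and PRELID3A (0.0841), with log2 fold changes of -0.88, -0.84 and -0.89. With 4 samples in 2 groups, such likeness reflects mainly the size of the difference between groups and the order of the samples within them.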

How the data were processed

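The authors deposited 1 table of raw read counts per gene for 58735 genes in 4 samples (2 shCON, 2 shZDHHC15), with gene lengths. The submitters' processing notes name hg38, HISAT2, SAMtools and StringTie; the counting tool and the strand setting are not given in the sources used here. All 58735 gene identifiers, starts and ends matched GENCODE 29 on GRCh38. Of the per-sample columns, 0 were left out. Samples were grouped by their titles. Genes passing filterByExpr (15817) were scaled by TMM and tested with edgeR 4.0.16 (R 4.3.3; glmQLFit, glmQLFTest, Benjamini-Hochberg adjustment over all genes), without a block; standard errors were taken from fold change and F statistic. The method was also run on simulated data with far fewer changed genes than were called here. Nothing is read from that run. Members and gene lists were chosen with earlier results of these data known. Named genes were all members and other S100 genes, 4 fixed partners, and in each other list the 3 largest called rises and falls, of which 1 gene is not reported here. Exon overlaps came from GENCODE 29, similar transcripts from BLAST 2.17.0 (for S100A7A with a looser identity limit set after the data were seen), promoters from RefSeq. No protein sequences were used here. Alternatives were 3 scalings, DESeq2 1.42.0, 2 filters, the replicate block and leaving out each sample. Depth limits a count of 0 to 3 counts.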

Additional observations from a re-analysis of the deposited data

How the results depend on the processing

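The described S100 genes past the limit numbered 3 higher and 4 lower under all 11 alternatives, except that 3 were lower with no filter on low counts, and the sign of each of these 7 log2 fold changes did not turn in any of them. With no filter, calls over all genes went to 1682 higher and 1658 lower, against 3427 and 3217, those of other S100 genes to 1 lower, and those of partners and receptors to 3 higher. With each sample left out in turn, other S100 genes called lower numbered 1 to 3 (1 without shZDHHC15 replicate 1), cytokines called lower 0 to 1 (1 without shZDHHC15 replicate 2), and genes between S100 genes on chromosome 1 called lower 0 to 1 (1 without shCON replicate 1). That last count was also 1 with DESeq2 size factors, upper-quartile factors, the replicate block and at least 10 counts in every sample, and this last filter left 4 higher, since it tests fewer genes. In fits that leave 1 sample in a group, that sample is assumed to vary like the other group. The replicate numbers pair nothing that the labels name, and deviations of the first samples of the groups correlated at 0.0344 over genes. With the replicate block 3723 genes were higher and 3502 lower, and the members' calls were again 3 and 4. The cause of the other shifts was not tested. The counts are deep for the described genes (195 or more in each sample), while S100A12, S100A1, S100A5 and the low SPRR genes rest on few counts.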
